A study of Mus musculus with 42 samples.

Results

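Blockade of GM-CSF was tested on top of 2 other antibodies by comparing 11 MC38 tumors of the group aPD1 + aGMCSF + aIL2RB with 11 of the group aPD1 + aIL2RB. These 22 tumors were chosen by their treatment labels from 42 in 5 groups, and no measured value entered the choice. MC38 is a colon carcinoma line of C57BL/6 origin, and the hosts were female F1 mice of CC075/UncJ and C57BL/6J (CC75xB6), aged 8 to 12 weeks, which received the cells under the skin. Both groups received aIL2RB (200 µg) every 3 days from engraftment and a single dose of aPD1 (200 µg) when tumors measured 75 to 110 mm3, and both were collected 48 hours later. The group aPD1 + aGMCSF + aIL2RB also received an antibody to GM-CSF (100 µg per dose). So all 22 tumors carried blockade of PD-1 and of IL2RB, and the comparison says nothing of GM-CSF blockade in their absence. One tumor line and 1 host cross were used, and the RNA came from whole tumor pieces that hold cancer cells, host leukocytes and stroma.

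Each group was numbered from 1 to 11, and replicates 1-6 (6 tumors per group) and replicates 7-11 (5 per group) were compared apart as well as together. The labels and methods name neither range as a batch and do not say what separates them. Any difference between the ranges therefore cannot be told apart from unrecorded differences in animals, time or handling. Totals ran from 7155486 to 23525678 counts per tumor with a median of 20229699, and aPD1 + aGMCSF + aIL2RB replicate 4 was the shallowest. Levels are given as CPM, counts scaled to a common library size after TMM adjustment, and a fold change is log2 of the level with aGMCSF over the level without it. The ranges differed in content: summed over a list of erythroid genes, levels were 19 to 43 CPM in replicates 1-6 and 68 to 969 CPM in replicates 7-11. The carcinoma keratin Krt8 was at 0 to 0.322 CPM in replicates 1-6 and at 0.583 to 7.88 CPM in replicates 7-11, whereas Hmga2, which is high in many carcinoma lines, was at 114 to 295 CPM throughout. Summed over 10 genes of all leukocytes, levels ran from 722 to 1918 CPM, highest in aPD1 + aGMCSF + aIL2RB replicate 1 (1918) and, within replicates 7-11, in aPD1 + aIL2RB replicate 9 (1327).

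GM-CSF, encoded by Csf2, is made by activated lymphocytes and by some tumor cells, and it signals through the receptor chains CSF2RA and CSF2RB, JAK2 and STAT5 in monocytes, macrophages, dendritic cells and granulocytes. IL2RB is the chain that receptors for IL-2 and IL-15 share on NK cells and T cells. MHC class II molecules, which present peptides to CD4 T cells, are made by antigen-presenting cells and by cells exposed to interferon-gamma. Their genes are switched on together by the coactivator CIITA, which is held at their promoters by proteins bound to the X box and to a CCAAT box read on the other strand (the Y box).

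These promoter letters are shown because 7 of the 10 class II genes listed were called lower in replicates 7-11, which H2-Oa, H2-Ob and Ctss were not. The windows were taken from RefSeq on GRCm38.p6, from 250 bases before to 50 after each annotated start, for 7 of the 10 class II genes listed. The set of windows used here held none for Ciita, H2-Ab1 and Cd74, so the promoters of these 3 were not searched. That is a limit of the set used and not a statement about their annotation. An X box with up to 1 mismatch was found in 3 of the 7 and in 0.712% of 32851 windows. CCAAT, on either strand, was found in 6 of the 7 and in 37.4% of all windows, and both together in 3 of the 7 and 0.277% of all. These motifs were chosen after the values were seen. The 3 stretches are printed on the plus strand with the X box and the reversed CCAAT in capitals.
H2-DMb1, chr17:34153083-34153144: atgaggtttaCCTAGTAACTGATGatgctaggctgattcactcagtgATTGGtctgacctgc
H2-Ob, chr17:34238804-34238862: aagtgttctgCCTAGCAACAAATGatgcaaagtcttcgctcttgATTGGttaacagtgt
H2-Eb1, chr17:34305762-34305822: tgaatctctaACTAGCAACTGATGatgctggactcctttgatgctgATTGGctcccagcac
The X box of H2-DMb1 had 0 mismatches and the others 1, and between 20 and 23 bases lay between the boxes. The STAT-type letters TTCNNNGAA were in 0 of the 7 windows and in 8.30% of all, and the core of the interferon-stimulated response element was in 1 of the 7 (Ctss, a lysosomal protease) and in 3.44% of all, both strands searched. A match describes the letters of a window and is no evidence of binding.

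Over all 11 against 11 tumors, no gene passed an adjusted p of 0.05 among 16163 tested with edgeR's quasi-likelihood test (0% called). An unadjusted p under 0.05 was reached by 1172 genes, and DESeq2 called 6. The gene with the lowest pooled p was Mgl2 (unadjusted p = 1.62e-05), a lectin of macrophages and type 2 dendritic cells. Without aGMCSF, Mgl2 (ENSMUSG00000040950, chr11:70130329-70137550 on the plus strand, GRCm38) was at 1.02, 2.30 and 3.92 CPM (lowest, median and highest of replicates 1-6) and at 1.99, 1.78, 0.955, 1.89 and 1.69 CPM in replicates 7-11. With aGMCSF it was at 0.596, 0.863 and 1.59 CPM in replicates 1-6 and at 1.09, 0.672, 0.583, 0.889 and 0.427 CPM in replicates 7-11. Both medians were lower with aGMCSF, the groups overlapped in each range, and the lowest tumors without aGMCSF were replicates 3 and 9. The pooled log2 fold change of Mgl2 was -1.26 (adjusted p = 0.195, SE 0.24) by edgeR, and DESeq2 gave an adjusted p of 0.00478. Within the ranges it was -1.30 (adjusted p = 0.389, SE 0.30) in replicates 1-6 and -1.19 (adjusted p = 0.0465, SE 0.33) in replicates 7-11. The call in replicates 7-11 was lost in 14 of 22 fits that left out 1 tumor, with adjusted p up to 0.117.

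The other 5 genes that DESeq2 called in the pooled comparison were Tecpr2, Maf1, Kif26b, Bdp1 and Ankrd37, and apart from Kif26b they are named here after their values were seen. Tecpr2, an autophagy gene, had a pooled log2 fold change of 0.27 (adjusted p = 0.195, SE 0.05) and was the 1 gene called when all 42 tumors shared the fit (adjusted p = 0.0303). Maf1, a repressor of RNA polymerase III, was at -0.23 and Bdp1, a subunit of the polymerase III factor TFIIIB, at 0.21, with adjusted p by edgeR of 0.21 for each. Kif26b, a kinesin-family gene, was at 0.65 and Ankrd37, induced by hypoxia, at -0.45.

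The pathways that the antibodies act on showed small pooled values. Csf2rb was at -0.12 (adjusted p = 0.931, SE 0.19), Csf2ra at -0.06 (adjusted p = 0.969, SE 0.17) and Il2rb at 0.41 (adjusted p = 0.917, SE 0.58) over all 22 tumors. H2-Ab1 was at 0.16 (adjusted p = 0.969, SE 0.48) and Cxcl9 at -0.16 (adjusted p = 0.964, SE 0.46). The pooled median of the MHC class II list was +0.08, and that of genes induced by interferon-gamma was -0.14. Neither sign was stable when 1 tumor was left out: the class II median ran from -0.14 to 0.16, negative without aPD1 + aGMCSF + aIL2RB replicate 1, 2 or 5, and the other from -0.34 to 0.04, positive without aPD1 + aIL2RB replicate 9. The fold changes of Csf2rb, Csf2ra, Il2rb, H2-Ab1 and Cxcl9 were each positive in replicates 1-6 and negative in replicates 7-11. Over all genes, 264 had an unadjusted p under 0.05 in both ranges. Of these, 70 had the same sign in both (32 higher and 38 lower with aGMCSF), 151 were higher in replicates 1-6 and lower in replicates 7-11, and 43 were the reverse.

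In replicates 1-6, edgeR called no gene (0%), 1169 genes had an unadjusted p under 0.05, and the lowest adjusted p was 0.386. DESeq2 called 6 genes, all higher with aGMCSF (Ptprb, Sat1, F11r, Tmem51, Cyyr1 and Gm26778, named after their values were seen). Without aPD1 + aIL2RB replicate 3 edgeR called 2 genes, and without aPD1 + aGMCSF + aIL2RB replicate 3 it called 1. The groups did not overlap for 21 genes that were higher with aGMCSF (0.13% of those tested) and 27 that were lower (0.167%). In replicates 7-11, 632 genes were called (3.91%), of which 356 were higher with aGMCSF (2.2%) and 276 lower (1.71%). The groups did not overlap for 330 genes that were higher (2.04%) and 436 that were lower (2.7%). The lower genes reached larger sizes: 39 of the 276 fell by more than 1 on the log2 scale, and 12 of the 356 rose by more than 1. The test of the difference between the ranges called 51 genes (0.316%), 24 with a more positive effect in replicates 7-11 (0.148%) and 27 with a more negative one (0.167%).

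The count in replicates 7-11 depended on single tumors and on the scaling. It was 120 without aPD1 + aGMCSF + aIL2RB replicate 8, 225 without its replicate 9, 366 without its replicate 7, 343 without its replicate 11 and 1208 without its replicate 10. Leaving out aPD1 + aIL2RB replicate 9 gave 163, its replicate 7 gave 293 and its replicate 11 gave 394. A fit of the 10 tumors of this range alone, which estimates the spread from fewer tumors, called 89. Scaling by library size alone called 381, with 176 higher and 205 lower. For the difference between ranges it called 220, with 38 more positive and 182 more negative. The count of 51 for the difference became 0 in 14 of 22 fits that each left out 1 tumor and 1 in 2 more. It was 621 without aPD1 + aGMCSF + aIL2RB replicate 10, 325 without its replicate 3 and 155 without its replicate 6, and 316, 249 and 315 without aPD1 + aIL2RB replicates 3, 8 and 10.

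**Figure D1:**
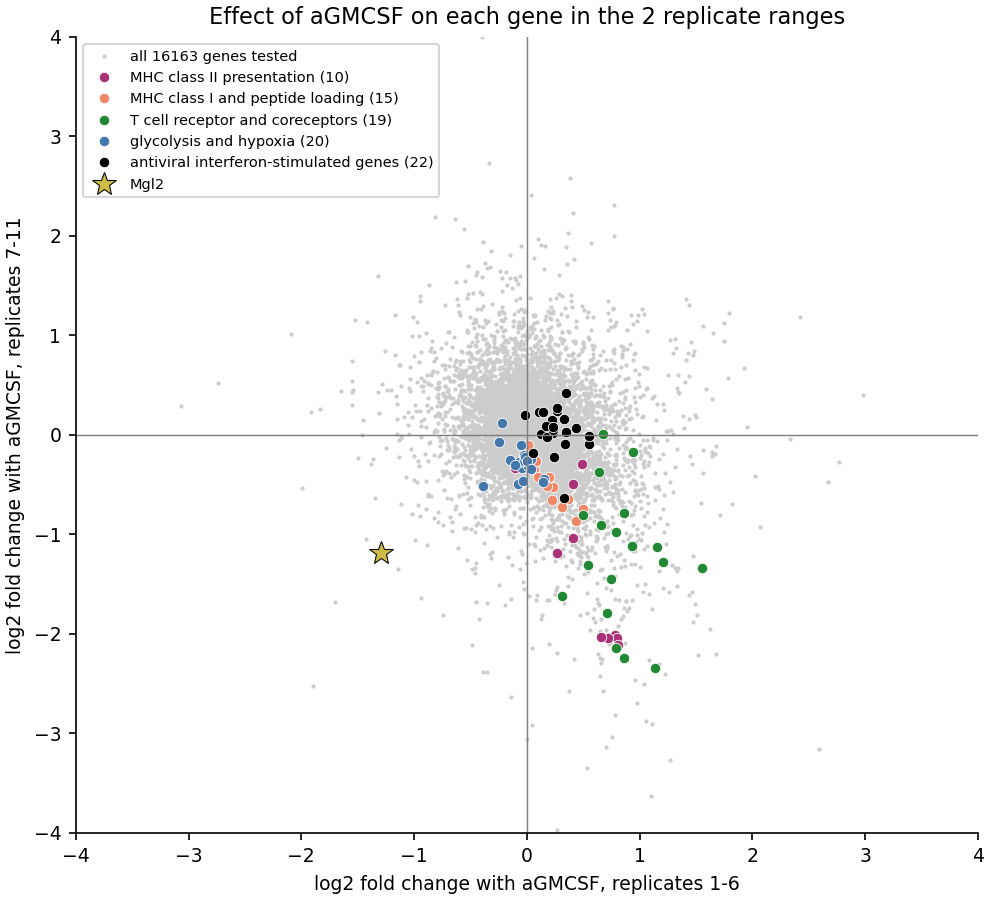
Log2 fold change with aGMCSF in replicates 1-6 (horizontal axis) and in replicates 7-11 (vertical axis) for each of 16163 genes (grey), with 5 gene lists and Mgl2 in color; 7 genes lie outside the axes, which end at 4. The class II and T cell genes sit mostly at the lower right, positive in replicates 1-6 and negative in replicates 7-11, and Mgl2 is negative in both.

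The 2 ranges share no tumor, so their effects were measured on separate animals. Across the 16163 genes, 45.8% had the same sign in both ranges, and Pearson's r of the 2 fold changes was -0.232, a description across genes that are not independent of one another. Of the 276 genes lower with aGMCSF in replicates 7-11, 137 had the opposite sign in replicates 1-6, and of the 356 higher genes 187 did.

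MHC class II genes were lower with aGMCSF in replicates 7-11. Of 10 members tested, 7 were called lower and none higher, beside 1.71% of all genes lower, and the list's median log2 fold change was -1.60, beside -0.00202 over all genes. In replicates 1-6 the median was +0.57 and none was called. In the difference between ranges the same 7 members were called, all more negative in replicates 7-11, beside 0.167% of all genes.

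H2-Ab1 (ENSMUSG00000073421, chr17:34257689-34269419 on the plus strand, GRCm38) encodes the beta chain of I-A, and it was at 74.5, 72.6, 205, 81.9 and 212 CPM in the tumors of replicates 7-11 without aGMCSF. With aGMCSF it was at 45.3, 11.1, 20.2, 60.4 and 21.1 CPM. All 5 tumors with aGMCSF lay below all 5 without it, and the mean level was 4.11-fold lower on the fitted scale. The log2 fold change was -2.04 (adjusted p = 0.0167, SE 0.46) by edgeR. In replicates 1-6 H2-Ab1 was at 63.9, 152 and 246 CPM without aGMCSF and 107, 261 and 435 CPM with it (lowest, median and highest). There the groups overlapped and the log2 fold change was 0.80 (adjusted p = 0.693, SE 0.39). The difference between the 2 effects was -2.84 (adjusted p = 0.0477, SE 0.60).

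H2-Aa, the alpha chain of I-A (chr17:34282744-34287823 on the minus strand), was at 91.6, 99.9, 230.1, 102 and 249.7 CPM without aGMCSF and 54.7, 12.9, 25.1, 73.6 and 25.8 CPM with it in replicates 7-11. H2-Eb1, the beta chain of I-E (chr17:34305867-34316674 on the plus strand), was at 76.1, 74.0, 184, 82.0 and 217 CPM without and 40.2, 9.98, 21.3, 55.6 and 19.9 CPM with aGMCSF. Replicates 9 and 11 were the highest of the tumors without aGMCSF in these genes, and replicates 7 and 10 the highest of those with it. The log2 fold changes in replicates 7-11 were -2.01 (adjusted p = 0.014, SE 0.44) for H2-Aa and -2.11 (adjusted p = 0.0139, SE 0.45) for H2-Eb1. In replicates 1-6 they were 0.78 and 0.81 with adjusted p of 0.687 for each.

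Cd74, the invariant chain that fills the class II groove before peptide arrives, was at 242, 209, 584, 229 and 583 CPM without and 113, 24.96, 57.5, 193 and 61.1 CPM with aGMCSF in replicates 7-11. Its log2 fold change there was -2.04 (adjusted p = 0.0173, SE 0.46). Ciita, the coactivator that switches the class II genes on (chr16:10480059-10528418 on the plus strand), was at 5.79, 9.38, 19.01, 6.27 and 13.03 CPM without aGMCSF and at 2.65, 0.827, 1.34, 5.28 and 2.99 CPM with it. The groups did not overlap for either gene. The log2 fold change of Ciita was -2.03 (adjusted p = 0.0114, SE 0.42) in replicates 7-11, 0.66 (adjusted p = 0.705, SE 0.34) in replicates 1-6 and 0.02 pooled, and the difference between ranges was -2.69 (adjusted p = 0.0477, SE 0.54).

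H2-DMa and H2-DMb1 encode the chaperone that exchanges the invariant chain fragment for peptide. In replicates 7-11 H2-DMa was at 23.6, 28.4, 42.6, 20.5 and 33.8 CPM without aGMCSF and 14.8, 10.6, 12.6, 17.5 and 9.91 CPM with it, a log2 fold change of -1.19 (adjusted p = 0.00755, SE 0.23). H2-DMb1, whose X box is printed above, was at 30.6, 33.1, 55.5, 28.5 and 50.2 CPM without and 22.4, 14.3, 15.1, 25.6 and 19.2 CPM with aGMCSF, with a log2 fold change of -1.04 (adjusted p = 0.0108, SE 0.21). Both were called, and neither group pair overlapped. H2-Oa and H2-Ob, which encode the inhibitor of that chaperone and are typical of B cells, were low and were not called. H2-Ob was at 0.859 to 2.15 CPM without and 0.845 to 1.72 CPM with aGMCSF, with a log2 fold change of -0.34 (adjusted p = 0.564, SE 0.30). Its window holds the pair of boxes printed above. Ctss, which trims the invariant chain, was at 388 to 592 CPM without and 287 to 414 CPM with aGMCSF, with a log2 fold change of -0.49 (adjusted p = 0.111, SE 0.18).

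The class II result rested partly on single tumors. Of its 10 members, 3 stayed called in replicates 7-11 without aPD1 + aGMCSF + aIL2RB replicate 8, and 5 without its replicate 9 or without aPD1 + aIL2RB replicate 9. Ciita, H2-DMa and H2-DMb1 stayed called in all 22 fits that left out 1 tumor, and 3 members were called in the fit of the 10 tumors alone. The difference between ranges called 7 or 8 members in 6 of those 22 fits and 0 in 16, with an adjusted p between 0.0145 and 0.113 for H2-Eb1. Summed over the 10 members, levels in replicates 7-11 were 373 to 848 CPM with aGMCSF and 933 to 1916 CPM without it. In replicates 1-6 the sums were 1166 to 3719 CPM with aGMCSF and 757 to 2163 CPM without it, so the tumors with aGMCSF in replicates 7-11 were the lowest set and those in replicates 1-6 reached the highest sums. The leukocyte list summed to 722 to 972 CPM with aGMCSF and to 894 to 1327 CPM without it in replicates 7-11. In replicates 1-6 it summed to 898 to 1918 CPM with and 812 to 1207 CPM without aGMCSF. In bulk tumors, fewer cells of a type and less RNA per cell cannot be told apart, and the part of leukocyte content in the class II values was not tested.

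**Figure D2:**
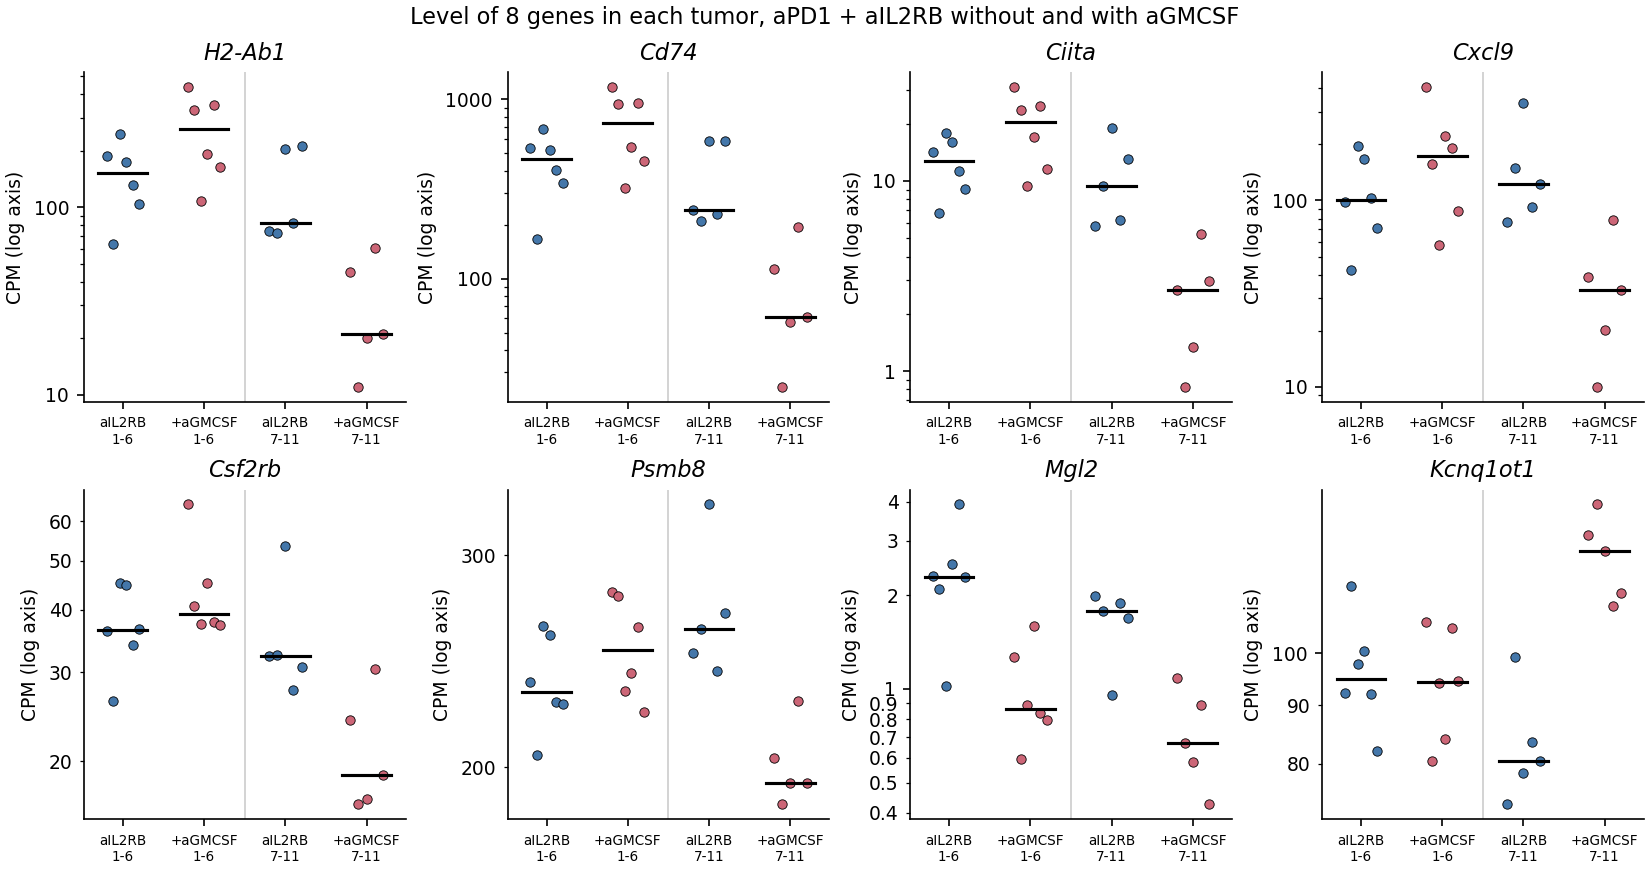
Level of 8 genes in each of the 22 tumors in CPM on log axes, without aGMCSF (blue) and with it (red), for replicates 1-6 left and 7-11 right of the line in each panel; horizontal bars are medians. In replicates 7-11 all 5 tumors with aGMCSF lie below the 5 without it for H2-Ab1, Cd74, Ciita and Psmb8 and above them for Kcnq1ot1, and the groups overlap for Cxcl9, Csf2rb and Mgl2.

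Csf2 itself was near the limit of detection and below the filter, at 0 CPM in all 5 tumors with aGMCSF in replicates 7-11 and at no more than 0.197 CPM in any of the 22. The antibody binds the secreted protein, so the Csf2 transcript is no check of the treatment. Of the receptor chains, Csf2rb (chr15:78325752-78353847 on the plus strand), the signaling chain shared with the receptors of IL-3 and IL-5, fell in replicates 7-11. It was at 32.3, 32.5, 53.5, 27.7 and 30.7 CPM without aGMCSF and 24.1, 16.4, 16.8, 30.5 and 18.7 CPM with it. The groups overlapped, replicate 9 was the highest without aGMCSF and replicate 10 the highest with it. The log2 fold change of Csf2rb was -0.73 (adjusted p = 0.0378, SE 0.20), and in replicates 1-6 it was 0.24 (adjusted p = 0.789, SE 0.18). The difference between ranges was not called for Csf2rb. Its call in replicates 7-11 was lost without any 1 of 6 tumors of that range, up to an adjusted p of 0.145 without aPD1 + aIL2RB replicate 9.

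Csf2ra, the chain that binds GM-CSF alone, was at 20.3, 19.8, 29.4, 19.8 and 21.6 CPM without and 14.1, 13.4, 12.95, 17.3 and 14.8 CPM with aGMCSF in replicates 7-11. All tumors with aGMCSF were below those without it. The log2 fold change was -0.61 (adjusted p = 0.0511, SE 0.18), just outside the threshold, and DESeq2 called it. Csf2rb2, a close copy of Csf2rb that is used by the IL-3 receptor of mice, was at 18.2, 16.7, 31.7, 16.6 and 15.8 CPM without and 13.8, 9.20, 10.1, 19.2 and 11.9 CPM with aGMCSF. Its log2 fold change was -0.63 (adjusted p = 0.145, SE 0.25). Reads may be split between the 2 near-identical genes, so their separate values are uncertain. Il3ra was at -0.44 (adjusted p = 0.277, SE 0.22) in replicates 7-11, Il5 at -0.08 with levels up to 0.761 CPM, and Il5ra was under the filter. Il3 was not analysed here.

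Among 16 tested genes of GM-CSF signaling and its induced genes, none was called in replicates 1-6. None was called in the difference between ranges, and up to 3 were when 1 tumor was left out. In replicates 7-11, 2 were called lower, beside 1.71% of all genes. The count was 0 without aPD1 + aGMCSF + aIL2RB replicate 8 or 9 or aPD1 + aIL2RB replicate 9, 1 without aPD1 + aGMCSF + aIL2RB replicate 7 or 11 or aPD1 + aIL2RB replicate 7 or 8, 5 without aPD1 + aGMCSF + aIL2RB replicate 1, 4 without aPD1 + aGMCSF + aIL2RB replicate 10, and 2 or 3 without any other tumor. Pim1, a kinase gene induced by STAT5, was at 11.7, 17.1, 29.5, 11.2 and 11.6 CPM without aGMCSF and at 7.84, 7.03, 5.78, 9.46 and 7.40 CPM with it. With no overlap between groups, the log2 fold change was -1.11 (adjusted p = 0.018, SE 0.25). In replicates 1-6 it was 0.07 (adjusted p = 0.963, SE 0.23). Bcl2l1, a survival gene, fell by less, at -0.25 (adjusted p = 0.0407, SE 0.07). Socs1, a feedback inhibitor of JAK signaling, was at -0.65 (adjusted p = 0.058, SE 0.19), and Spi1, the myeloid transcription factor PU.1, at -0.43 (adjusted p = 0.0758, SE 0.14). Pim1 lost its call without aPD1 + aIL2RB replicate 9 or without aPD1 + aGMCSF + aIL2RB replicate 8 or 9 (adjusted p = 0.0573 to 0.0727), and Bcl2l1 without any 1 of 7 tumors.

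None of the 7 tested genes of the IL-2 and IL-15 list, the pathway blocked in both groups, was called in either range. Il2rb was at 1.27, 1.22, 5.06, 0.533 and 3.13 CPM without aGMCSF and 0.784, 0.827, 0.627, 1.41 and 0.759 CPM with it in replicates 7-11, and the groups overlapped. In replicates 1-6 it was at 0.483, 3.68 and 11.4 CPM without and 3.01, 4.99 and 19.4 CPM with aGMCSF (lowest, median and highest). The log2 fold changes were 0.77 (adjusted p = 0.776, SE 0.54) in replicates 1-6 and -1.34 (adjusted p = 0.281, SE 0.69) in replicates 7-11. Il2ra was at -1.22, Il2rg at -0.60, Il15 at -0.17 and Il15ra at -0.19 in replicates 7-11, with adjusted p from 0.147 to 0.639. Jak1 and Jak3, the kinases of these receptors, were at 0.00 and -0.10, and Il2 was under the filter.

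Genes of T cells and of cytotoxic cells had large fold changes of opposite sign in the ranges, at low levels. None of 19 genes of the T cell receptor and its coreceptors was called, with medians of +0.79 in replicates 1-6 and -1.13 in replicates 7-11. In the difference between ranges none of the 19 was called, and at most 1 when 1 tumor was left out. For the cytotoxic genes below these counts were 0 and at most 2. Zap70, a kinase of the T cell receptor, was at 0.86 (adjusted p = 0.732, SE 0.50) in replicates 1-6 and -2.24 (adjusted p = 0.0666, SE 0.70) in replicates 7-11, and Cd6, Lat and Cd2 were at -2.14, -1.62 and -1.79 in replicates 7-11 with adjusted p of 0.134, 0.179 and 0.183. Summed over these 19 genes, levels in replicates 7-11 were 11 to 24 CPM with aGMCSF and 16 to 47 CPM without it. Of 15 genes of cytotoxic granules and NK cells, 1 was called lower in replicates 7-11, beside 1.71% of all genes, and the medians were +1.06 and -1.95. That gene was Ifng, interferon-gamma itself. It was at 0.452, 1.22, 3.68, 0.738 and 0.497 CPM without aGMCSF and 0.241, 0, 0.269, 0.366 and 0 CPM with it. Both groups were apart, with a log2 fold change of -2.88 (adjusted p = 0.046, SE 0.81) in replicates 7-11 and 1.06 (adjusted p = 0.737, SE 0.65) in replicates 1-6. The call was lost in 13 of 22 fits that left out 1 tumor, up to an adjusted p of 0.199 without aPD1 + aIL2RB replicate 9. Gzmb, a granule protease, was at 1.27, 1.88, 7.64, 1.15 and 1.84 CPM without and 0.543, 0, 0.224, 0.889 and 0.474 CPM with aGMCSF, with a log2 fold change of -2.69 (adjusted p = 0.0988, SE 0.94). Klrb1b, an NK cell receptor, was at 3.53, 3.09, 22.3, 3.20 and 8.70 CPM without and 0.543, 0.569, 0.448, 2.09 and 0.948 CPM with aGMCSF. No tumor with aGMCSF reached the level of any without it, and the log2 fold change was -3.14 (adjusted p = 0.0192, SE 0.73). It lost its call without aPD1 + aIL2RB replicate 9 or aPD1 + aGMCSF + aIL2RB replicate 8 or 9 (adjusted p = 0.0598 to 0.0891).

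Of 25 genes induced by interferon-gamma, 7 were called lower in replicates 7-11, beside 1.71% of all genes, and none higher. The count was 0 without aPD1 + aGMCSF + aIL2RB replicate 8, 9 or 11 or aPD1 + aIL2RB replicate 9, 1 without aPD1 + aGMCSF + aIL2RB replicate 7 and 3 without aPD1 + aIL2RB replicate 8. It rose to 15 without aPD1 + aGMCSF + aIL2RB replicate 1 or aPD1 + aIL2RB replicate 10, to 16 without aPD1 + aGMCSF + aIL2RB replicate 10 and to 12 without aPD1 + aGMCSF + aIL2RB replicate 3, and was 5 to 8 without any other tumor. The list's median was -1.05, beside +0.40 in replicates 1-6, where none was called. None of the 25 was called in the difference between ranges either, and up to 16 were when 1 tumor was left out. Cxcl9 (chr5:92321347-92328079 on the minus strand), a chemokine that draws T cells through CXCR3, was at 76.9, 149, 334, 91.9 and 122 CPM without aGMCSF and 38.7, 10.03, 20.2, 78.9 and 32.95 CPM with it. The highest tumor with aGMCSF, replicate 10, was just above the lowest without it, replicate 7. The log2 fold change of Cxcl9 was -2.10 (adjusted p = 0.0278, SE 0.53), and in replicates 1-6 it was 0.72 (adjusted p = 0.746, SE 0.46). Serpina3g, a protease inhibitor of activated leukocytes, was at 16.95, 22.1, 48.8, 12.9 and 19.6 CPM without and 8.15, 1.24, 3.54, 11.4 and 4.03 CPM with aGMCSF, with a log2 fold change of -2.10 (adjusted p = 0.0269, SE 0.52). Gbp2, a guanylate-binding protein, was at -1.15 (adjusted p = 0.0348, SE 0.30) and Irf1, a transcription factor of the interferon response, at -0.52 (adjusted p = 0.0278, SE 0.13). Each of these 4 lost its call without aPD1 + aIL2RB replicate 9 (adjusted p = 0.102 to 0.154), the tumor with the highest level of each of them in its group, and without aPD1 + aGMCSF + aIL2RB replicate 8, 9 or 11. Cxcl9, Gbp2 and Irf1 also lost theirs without its replicate 7, and Gbp2 without aPD1 + aIL2RB replicate 8. None of the 25 was called in the fit of the 10 tumors alone.

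Of 22 antiviral genes, which type I interferon induces most, none was called in either range, and their medians were +0.24 and +0.06. Rsad2 was at 0.23, Mx1 at 0.42, Ddx58 at 0.20 and Zbp1 at -0.63 in replicates 7-11, with adjusted p from 0.147 to 0.459.

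Of 15 genes of MHC class I and peptide loading, 10 were called lower in replicates 7-11, beside 1.71% of all genes, and none higher, with a median of -0.42, and in replicates 1-6 the median was +0.18 with none called. The count fell to 2 without aPD1 + aGMCSF + aIL2RB replicate 8 or 9 or aPD1 + aIL2RB replicate 9, to 3 without aPD1 + aGMCSF + aIL2RB replicate 11, to 5 without aPD1 + aIL2RB replicate 7 and to 6 without aPD1 + aGMCSF + aIL2RB replicate 7 or aPD1 + aIL2RB replicate 11, and was 9 to 13 otherwise. Psme2, a proteasome activator subunit, was at 182, 176, 201, 165 and 175 CPM without aGMCSF and 143, 147, 142, 157 and 154 CPM with it, with a log2 fold change of -0.28 (adjusted p = 0.00631, SE 0.05). Psmb8, a subunit of the immunoproteasome, was at 249, 261, 330.5, 240.4 and 269 CPM without and 204, 186, 194, 227 and 194 CPM with aGMCSF, with a log2 fold change of -0.42 (adjusted p = 0.0089, SE 0.08). For both genes all tumors with aGMCSF were below those without it, and both stayed called in replicates 7-11 in all 22 fits that left out 1 tumor. Psmb8 was the 1 member called in the difference between ranges, at -0.52 (adjusted p = 0.0491, SE 0.11). With 1 tumor left out, the difference called 0 members of this list in 16 of 22 fits and 4 to 12 in the other 6. H2-D1, a class I heavy chain, was at -0.52 (adjusted p = 0.0205, SE 0.12) and Tap2, the peptide transporter, at -0.35 (adjusted p = 0.0218, SE 0.09). Both lost their call without aPD1 + aIL2RB replicate 9 and without aPD1 + aGMCSF + aIL2RB replicate 8 or 9, and Tap2 also without its replicate 11 (adjusted p = 0.0508 to 0.0844). In the fit of the 10 tumors alone 2 of the 15 were called.

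**Figure D3:**
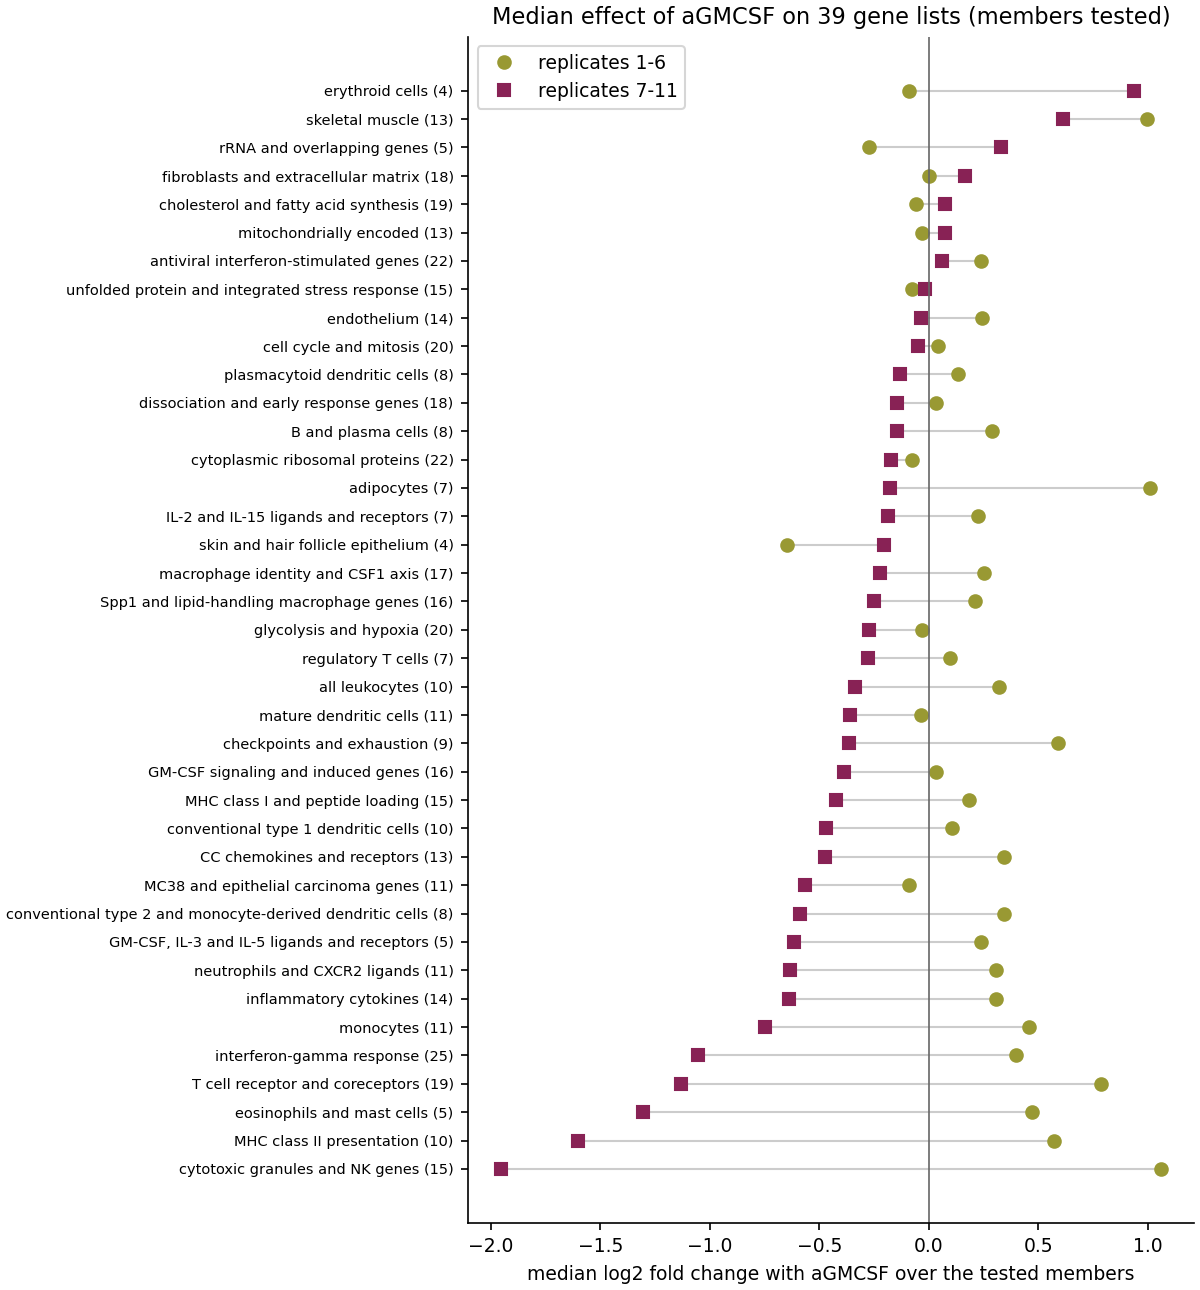
Median log2 fold change with aGMCSF over the tested members (number in brackets) of 39 gene lists, in replicates 1-6 (circles) and replicates 7-11 (squares), ordered by replicates 7-11. The lowest medians in replicates 7-11 belong to cytotoxic granules and NK genes (-1.95) and MHC class II presentation (-1.60), whose medians in replicates 1-6 are +1.06 and +0.57.

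Genes with the largest fall in replicates 7-11, by the rule for named genes, included Serpina3f, Dnase1l3 and Tlr12 beside the class II genes, Klrb1b and Serpina3g. Serpina3f, a protease inhibitor of the same cluster as Serpina3g, was at 4.75, 7.00, 12.9, 3.77 and 3.18 CPM without aGMCSF and 0.965, 0.103, 1.12, 1.52 and 0.759 CPM with it. The log2 fold change was -2.81 (adjusted p = 0.00631, SE 0.52), and the difference between ranges was -3.60 (adjusted p = 0.0477, SE 0.66). Dnase1l3, a secreted nuclease of macrophages and dendritic cells, was at 2.89, 4.31, 12.4, 3.52 and 6.56 CPM without and 0.845, 0.465, 1.12, 2.51 and 1.04 CPM with aGMCSF. Its log2 fold change was -2.30 (adjusted p = 0.014, SE 0.50), against 1.17 in replicates 1-6. Tlr12, a sensor of parasite protein in dendritic cells and macrophages, was at 3.07, 3.96, 7.64, 5.70 and 7.95 CPM without and 1.63, 0.982, 1.39, 3.03 and 1.19 CPM with aGMCSF, a log2 fold change of -1.79 (adjusted p = 0.00906, SE 0.35). The groups did not overlap for these 3 genes. Gbp8, another guanylate-binding protein, and Tmem51, a membrane protein, were named through the difference between ranges, which was -2.35 (adjusted p = 0.0477, SE 0.47) and -1.57 (adjusted p = 0.0477, SE 0.32). Tmem51 was at 0.95 in replicates 1-6 and -0.62 in replicates 7-11, called in neither by edgeR (adjusted p = 0.389 and 0.138), and in the former by DESeq2 (adjusted p = 0.0419). Dnase1l3 lost its call in replicates 7-11 without aPD1 + aIL2RB replicate 9 or aPD1 + aGMCSF + aIL2RB replicate 8 (adjusted p = 0.0569 and 0.0582), whereas Serpina3f, Tlr12 and Gbp8 kept theirs in that range in all 22 fits. The calls of Serpina3f, Dnase1l3, Tlr12, Gbp8 and Tmem51 in the difference between ranges were each lost in 16 of 22 fits (adjusted p up to 0.113).

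Markers of dendritic cells and macrophages were mostly not called. Of 10 genes of type 1 dendritic cells, 2 were called lower in replicates 7-11, beside 1.71% of all genes: Naaa at -0.53 (adjusted p = 0.0232, SE 0.13) and Irf8, a transcription factor of these cells that interferon-gamma also induces, at -0.73 (adjusted p = 0.0482, SE 0.21). Naaa, a lysosomal amidase, lost its call without any 1 of 4 tumors (adjusted p = 0.0526 to 0.0895). Irf8 was at 38.7, 53.0, 75.1, 36.9 and 46.6 CPM without and 29.7, 25.8, 25.9, 42.3 and 27.1 CPM with aGMCSF, and it lost its call in 16 of 22 fits that left out 1 tumor. Tlr3, a sensor of double-stranded RNA in these cells, was at 0.19 and Clec9a, the defining receptor of type 1 dendritic cells, was at -0.24 (adjusted p = 0.124, SE 0.09). Of 8 tested genes of type 2 and monocyte-derived dendritic cells, Mgl2 was the 1 called lower, beside the same 1.71%. Itgax, which encodes CD11c, was at -0.78 (adjusted p = 0.179, SE 0.33). Sirpa was at -0.27 and Cd300a at -0.63, neither called. None of 11 genes of mature dendritic cells was called, and Ccl22, a chemokine that draws regulatory T cells, was at -0.94 in replicates 1-6 and -1.64 in replicates 7-11 with an adjusted p of 0.106 in the latter. Of 8 genes of plasmacytoid dendritic cells Irf8, shared with the type 1 list, was the 1 called lower, again beside 1.71%.

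None of 17 genes of macrophage identity was called, with medians of +0.25 and -0.22. In replicates 7-11 the groups did not overlap for 4 of them, all lower, beside 2.7% of all genes, and 4 were called lower without aPD1 + aGMCSF + aIL2RB replicate 1, 3 without its replicate 10 and 1 without aPD1 + aIL2RB replicate 8. Lyz2, a lysozyme, was at -0.26 (adjusted p = 0.0781, SE 0.09) in replicates 7-11, and the complement genes C1qa, C1qb and C1qc were at -0.42, -0.45 and -0.40 with adjusted p of 0.0787, 0.0822 and 0.0936. Among 11 monocyte genes, 1 was called higher with aGMCSF in replicates 7-11, beside 2.2% of all genes, and none lower, while 9 of the 11 had negative fold changes and the median was -0.75. The gene called was Vcan, which encodes the matrix proteoglycan versican. It was at 93.7, 110.2, 88.0, 92.1 and 95.7 CPM without and 114, 118, 154, 116 and 118 CPM with aGMCSF, a log2 fold change of 0.37 (adjusted p = 0.0185, SE 0.08), and the groups did not overlap. Ccr2, the receptor that brings monocytes to tissue, was at -0.56 (adjusted p = 0.053, SE 0.16). Vcan lost its call without aPD1 + aIL2RB replicate 9 (adjusted p = 0.0624) or without aPD1 + aGMCSF + aIL2RB replicate 9 (0.0605). With 1 tumor left out, up to 3 of the 11 monocyte genes were called lower in replicates 7-11, and the list's median ran from -0.99 to -0.25.

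No member was called in either range in the lists of checkpoints and exhaustion (9 tested), regulatory T cells (7), inflammatory cytokines (14), CC chemokines and receptors (13), neutrophils and CXCR2 ligands (11), eosinophils and mast cells (5) and B and plasma cells (8). The same held for endothelium (14), fibroblasts and extracellular matrix (18), skeletal muscle (13), adipocytes (7), erythroid cells (4), skin epithelium (4), MC38 and epithelial carcinoma genes (11), cell cycle (20), all leukocytes (10), lipid synthesis (19), the unfolded protein response (15), mitochondrially encoded genes (13), genes overlapping rRNA (5) and early response genes (18). These counts of 0 in replicates 7-11 were not all stable. Of the leukocyte list 4 were called lower without aPD1 + aGMCSF + aIL2RB replicate 1 or 10, and 1 without aPD1 + aGMCSF + aIL2RB replicate 3 or aPD1 + aIL2RB replicate 3, 8 or 10. Of the CC chemokine list 2 were called lower without aPD1 + aGMCSF + aIL2RB replicate 10, of the cell cycle list 2 without aPD1 + aIL2RB replicate 10, and 2 mitochondrially encoded genes were called higher without replicate 10 of either group. Each other list in this paragraph had at most 1 member called when 1 tumor was left out. Of the leukocyte list, Coro1a had the lowest p in replicates 7-11, at -0.56 (adjusted p = 0.0515, SE 0.16), and in replicates 1-6 it was 0.27. Ctla4, a checkpoint receptor of activated T cells, was at -2.14 (adjusted p = 0.0649, SE 0.66) and Tigit at -1.74. Acod1, which makes itaconate in activated macrophages, was at -1.83 (adjusted p = 0.0751, SE 0.59), and Cxcl3, a neutrophil chemokine, at -2.20 (adjusted p = 0.099, SE 0.76). Tpsb2, a mast cell tryptase, was at -1.75 (adjusted p = 0.0897, SE 0.59). Il1b, a cytokine of activated myeloid cells, was at -0.91 and Tnf at -0.76 in replicates 7-11, with adjusted p of 0.159 and 0.211. Foxp3, the factor of regulatory T cells, was at -0.62 (adjusted p = 0.446, SE 0.44).

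The ratio of Cxcl9 to Spp1 counts, which sets an interferon-induced gene against one of Spp1-expressing macrophages, was lower with aGMCSF in replicates 7-11. In replicates 7-11 the ratio was 0.245, 0.391, 0.782, 0.310 and 0.491 in the tumors without aGMCSF and 0.154, 0.0390, 0.0720, 0.165 and 0.0914 in those with it. All 5 tumors with aGMCSF lay below the 5 without it. The mean difference in log2 ratio was -2.15 (exact two-sided Wilcoxon test, p = 0.00794, the smallest that 5 against 5 allows). In replicates 1-6 the ratio ran from 0.150 to 0.772 without aGMCSF and from 0.280 to 2.01 with it, with medians of 0.535 and 1.03. The groups overlapped and the mean log2 difference was +0.87 (p = 0.180 by the same exact test). The effects of the ranges differed by -3.02 (two-sided test with 100000 permutations within ranges, p = 0.00133). Over all 11 against 11 tumors the mean log2 difference was -0.50 (p = 0.652, exact two-sided Wilcoxon test). After Benjamini-Hochberg adjustment over these 4 tests, the adjusted p was 0.0159 in replicates 7-11, 0.240 in replicates 1-6, 0.00532 for the difference and 0.652 pooled (exact and permutation tests as above). The difference in replicates 7-11 stayed between -2.37 and -1.84 when any 1 tumor was left out.

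Spp1 (chr5:104435118-104441050 on the plus strand), which encodes osteopontin, was at 314, 381, 427, 297 and 249 CPM without and 251, 257, 281, 478 and 361 CPM with aGMCSF in replicates 7-11, and the groups overlapped. The fold change on the log2 scale was -0.03 (adjusted p = 0.932, SE 0.16) there and -0.25 (adjusted p = 0.729, SE 0.14) in replicates 1-6.

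**Figure D4:**
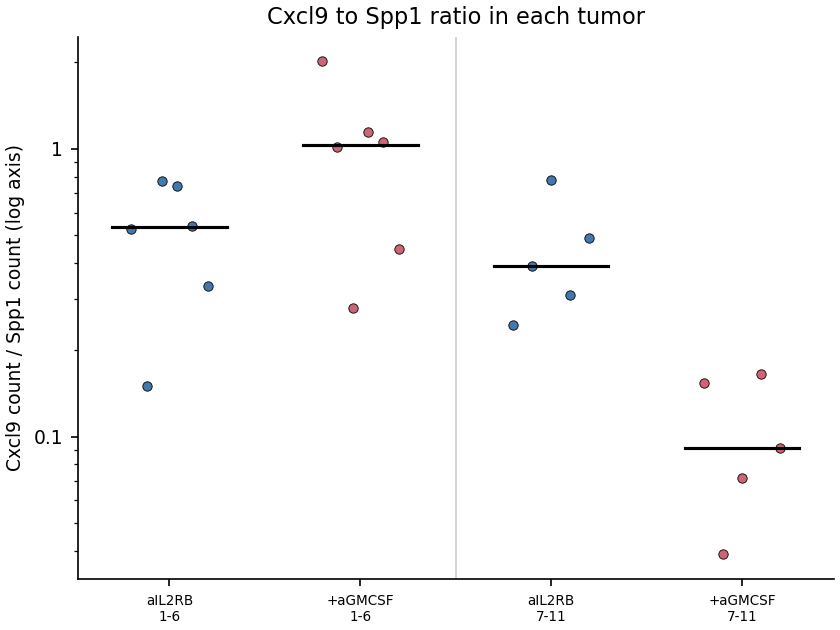
Cxcl9 count divided by Spp1 count in each tumor on a log axis, without aGMCSF (blue) and with it (red) in replicates 1-6 and 7-11; bars are medians. In replicates 7-11 the tumors with aGMCSF lie at 0.0390 to 0.165, below the lowest without it (0.245), and in replicates 1-6 the groups overlap.

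Of 20 genes of glycolysis and hypoxia, 11 were called lower in replicates 7-11, beside 1.71% of all genes, and none higher, with a median of -0.27, beside -0.03 in replicates 1-6. None of the 20 was called in replicates 1-6 or in the difference between ranges, where up to 3 were called when 1 tumor was left out. Ndrg1, induced by hypoxia, was at 224, 271, 278, 186 and 206 CPM without and 152, 152, 171, 193 and 176 CPM with aGMCSF, a log2 fold change of -0.47 (adjusted p = 0.00631, SE 0.09). The groups overlapped in replicate 10 of both. Pkm, Ldha and Gapdh, enzymes of glycolysis, were at -0.24 (adjusted p = 0.0125, SE 0.05), -0.26 (adjusted p = 0.018, SE 0.06) and -0.21 (adjusted p = 0.0191, SE 0.05). The count fell to 1 without aPD1 + aGMCSF + aIL2RB replicate 8, to 3 without aPD1 + aIL2RB replicate 9, to 4 without aPD1 + aGMCSF + aIL2RB replicate 7 or 9 or aPD1 + aIL2RB replicate 8 or 11, and to 5 without aPD1 + aGMCSF + aIL2RB replicate 11 or aPD1 + aIL2RB replicate 7. It was 7 without aPD1 + aGMCSF + aIL2RB replicate 5 or aPD1 + aIL2RB replicate 1, and 8 to 13 without any other tumor. Of 22 genes of cytoplasmic ribosomal proteins, 9 were called lower, beside the same 1.71%, and none higher, with a median of -0.17. Fold changes were negative for 21 of the 22 in replicates 7-11, and for all 22 in replicates 1-6 (median -0.08) and pooled (median -0.11). None was called in replicates 1-6, pooled or in the difference between ranges. The 9 calls in replicates 7-11 fell to 3 without aPD1 + aGMCSF + aIL2RB replicate 8 or 11. They fell to 4 without replicate 9 of either group. Otherwise the count was 6 to 12, where aPD1 + aIL2RB replicate 7 gave the 6. Rps9 was at 712, 695, 708, 697 and 730.1 CPM without and 617, 599, 623, 640.4 and 604 CPM with aGMCSF, a log2 fold change of -0.20 (adjusted p = 0.00631, SE 0.04). In replicates 1-6 Rps9 was at -0.03 (adjusted p = 0.902, SE 0.03). Its levels in the tumors without aGMCSF were 579 to 623 CPM in replicates 1-6, below all tumors of replicates 7-11 without aGMCSF. Ldha and Gapdh lost their call without aPD1 + aIL2RB replicate 9 or aPD1 + aGMCSF + aIL2RB replicate 8 (adjusted p = 0.0569 to 0.0728) and Pkm without the latter (0.0516).

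Genes called higher with aGMCSF in replicates 7-11 had long transcripts. Of the 356, those with an annotated length (355) had a median transcript length of 7605 bases and a median genomic span of 73479 bases. The 276 lower genes had medians of 1984.5 and 6735.5 bases, and all 16163 tested genes 3131 and 18794. With genes in 5 equal bins by transcript length, 258 were called higher and 10 lower in the longest bin, and 22 higher and 122 lower in the shortest. Median log2 fold changes by bin ran from -0.088 to -0.050, -0.018, 0.019 and 0.096 in replicates 7-11. In replicates 1-6 they ran from -0.021 to 0.014.

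The slope of each tumor's log2 level on log2 transcript length, taken against the mean of all 22 tumors, described the same pattern per tumor. In replicates 7-11 it was -0.0599, -0.0373, -0.0718, -0.0351 and -0.0448 without aGMCSF, and 0.0201, 0.0115, 0.00761, -0.0327 and -0.0170 with it. All tumors with aGMCSF were above those without it (mean difference 0.0477, exact two-sided permutation test of the means, p = 0.00794). In replicates 1-6 the mean difference was 0.0162 (p = 0.0758, same exact test), and both groups lay above the tumors of replicates 7-11 without aGMCSF. The share of counts on rRNA and overlapping genes, 2.86% to 12.6%, showed no difference past the threshold (exact p = 0.476 in replicates 1-6 and 0.579 in 7-11). With each tumor's trend on length removed, an alternative chosen after seeing the data, 132 genes were called in replicates 7-11 (65 higher and 67 lower) and 0 in the difference between ranges. Of 22 named genes that lost their call in the difference, Kcnq1ot1 kept 19.4% of its log2 value, and the other 21 kept 84.7% to 107% (adjusted p = 0.0599 to 0.0648). All 7 class II genes stayed called in replicates 7-11, with a list median of -1.55, and Cxcl9, Gbp2, Irf1, Serpina3g, Ifng, Csf2rb and Mgl2 did not. Their log2 fold changes were -2.08 for Cxcl9 (-2.10 before removal), -1.12 for Gbp2 (-1.15), -0.47 for Irf1 (-0.52), -2.04 for Serpina3g (-2.10), -2.80 for Ifng (-2.88), -0.77 for Csf2rb (-0.73) and -1.13 for Mgl2 (-1.19), with adjusted p of 0.0661 to 0.105. Calls were also lost for Bcl2l1, H2-D1, Tap2, Irf8, Naaa, Ldha, Rplp1, Rps14, Asxl3, Kif26b, Gm37677, Gm38082 and Gm42513, and for Vcan, whose log2 fold change fell from 0.37 to 0.16 (adjusted p = 0.334). Of these, Bcl2l1, H2-D1, Tap2, Irf8, Naaa and the 3 provisional genes kept 87.3% to 106% of their log2 fold change. Ldha kept 80.02%, Asxl3 74.5%, Kif26b 69.5%, Rplp1 64.4% and Rps14 59.9%. Rps14 had a log2 fold change of -0.12 there (adjusted p = 0.124). What sets the length trend was not tested.

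**Figure D5:**
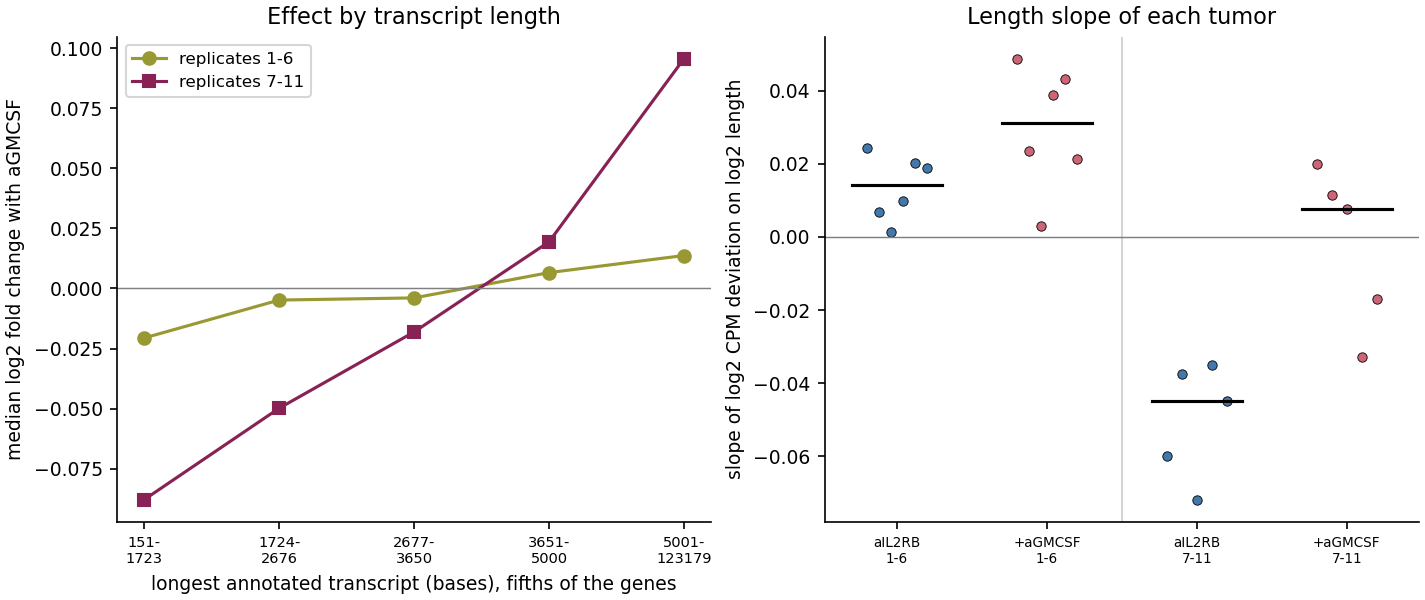
Left, median log2 fold change with aGMCSF in 5 equal bins of genes by transcript length in bases, for replicates 1-6 and 7-11; right, the slope of log2 level deviation on log2 length in each tumor, with medians as bars. In replicates 7-11 the medians climb from -0.088 to 0.096, and the 5 tumors without aGMCSF have the lowest slopes of all sets, from -0.0718 to -0.0351.

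Among the genes that rose most in replicates 7-11, Pcdhb19, a protocadherin, was at 1.45, 2.33, 1.00, 2.05 and 1.34 CPM without aGMCSF and 5.25, 4.86, 3.18, 2.51 and 3.89 CPM with it. The groups did not overlap, and the log2 fold change was 1.26 (adjusted p = 0.00777, SE 0.24). In replicates 1-6 it was at 4.39 to 5.85 CPM without and 1.99 to 4.70 CPM with aGMCSF, so the group without aGMCSF was the higher one there. Prr33 was at 1.13, 1.52, 1.19, 1.23 and 1.14 CPM without and 2.47, 3.00, 2.46, 2.40 and 2.13 CPM with aGMCSF in replicates 7-11, a log2 fold change of 1.00 (adjusted p = 0.0127, SE 0.21). Asxl3, Zfp993 and Kif26b were at 0.81 (adjusted p = 0.0211, SE 0.19), 0.75 (adjusted p = 0.0251, SE 0.19) and 0.75 (adjusted p = 0.0417, SE 0.21). The value of Kif26b in replicates 1-6 was 0.57 (adjusted p = 0.612, SE 0.19). The other members of this group carry only provisional names: Gm42713 and Gm43601, which have identical values in every tumor, were at 0.89 (adjusted p = 0.031, SE 0.23), and Gm37677, Gm38082 and Gm42513 at 0.89, 0.84 and 0.79 with adjusted p of 0.041, 0.0374 and 0.0472. Calls of Asxl3, Zfp993, Kif26b and the provisional genes were each lost without 4 or more single tumors, and that of Prr33 without aPD1 + aGMCSF + aIL2RB replicate 8 (adjusted p = 0.0539). Pcdhb19 kept its call in all 22 fits.

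Of the genes with the most positive difference between ranges, Kcnq1ot1, a long non-coding RNA of the imprinted Kcnq1 region, was at 73.7, 99.2, 78.5, 83.5 and 80.4 CPM without and 127, 135, 123, 110.0 and 113 CPM with aGMCSF in replicates 7-11, with no overlap. Its log2 fold change was 0.55 (adjusted p = 0.00631, SE 0.09), beside -0.03 in replicates 1-6. The differences between ranges were 1.67 for Pcdhb19, 1.40 for Prr33 and 0.58 for Kcnq1ot1. With each tumor's length trend removed, that of Kcnq1ot1 was 0.11 (adjusted p = 0.646), and those of Pcdhb19 and Prr33 were 1.58 and 1.43 (adjusted p = 0.0599 for both). Gm43540, 5930430L01Rik, Arxes2, Gm14421, Kat6b, Ghr and Zfp60 had differences between 0.57 and 0.82, with adjusted p of 0.0477 to 0.0491 by edgeR. Ghr, the growth hormone receptor, was at 15.4 to 21.1 CPM without aGMCSF in replicates 7-11 and at 17.1 to 25.5 CPM with it. In replicates 1-6 Ghr was at 28.2 to 38.7 CPM without and 24.6 to 29.2 CPM with aGMCSF. The calls of these 10 genes in the difference were each lost in 16 of 22 fits that left out 1 tumor.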

How the data were processed

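Bulk mRNA was measured in 42 MC38 tumors, of which the 22 of 2 groups were used, and groups and replicate numbers came from the labels, which call the tumors biological replicates. Per the study's methods, the authors aligned paired-end reads with Bowtie 1.2.3 to transcriptomes of the founder strains and deposited expected counts per gene, summed over haplotypes, with no normalization. Of the values in the 22 tumors, 15.2% were not whole, and expected counts were rounded before testing. Of 26811 gene IDs, 26629 matched a symbol and a position on GRCm38 and 182 did not.

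Genes with enough counts for edgeR's filterByExpr over the 4 sets of tumors (16163) were tested with edgeR 4.0.16 (R 4.3.3, TMM scaling, quasi-likelihood test, two-sided), with Benjamini-Hochberg adjustment over all of them and a threshold of 0.05. The pooled fit held the group alone. The fit of the ranges held the 4 sets, which share 1 estimate of the spread, and it also gave the difference between ranges. An SE is the fold change divided by the moderated statistic. The ratio of Cxcl9 to Spp1 was tested with SciPy 1.17.1. DESeq2 1.42.0 and the other alternatives are given in the closing section, and the edgeR steps were tested on simulated data.

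Members and gene lists were chosen with earlier results of these data known. Named genes were those called in the pooled comparison, up to 10 per direction with the largest fold changes among those called in a range (groups not overlapping) or in the difference, all members of the GM-CSF and IL-2 receptor lists, Cxcl9, Spp1, and up to 4 members of every other list with the lowest p in replicates 7-11. Genes outside the rule are said to be so or serve as background. Not every list member is reported here, and 2 that matched no symbol of the table were not analysed. No 2 tumors of the same group and range held like counts. Pairs across groups or ranges were not compared, and all 22 were counted as separate. Total counts ran from 7155486 to 23525678 per tumor. The aligner's other settings were not given in the sources used here.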

Additional observations from a re-analysis of the deposited data

Results flagged for a closer look

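In 156 tests of a single group within a range (39 measures in 4 sets of tumors), 19 values stood apart from those of the other tumors of their set by Dixon's test, where chance gives about 1 in 20. Of these, 8 were from aPD1 + aIL2RB replicate 9. It was high for Serpina3g (48.8 CPM), Csf2ra (29.4 CPM), Csf2rb (53.5 CPM), Csf2rb2 (31.7 CPM), Cxcl9 (334 CPM), Ifng (3.68 CPM) and Gzmb (7.64 CPM), and low for Mgl2 (0.955 CPM). Its sum over the leukocyte list was also the highest of replicates 7-11 (1327 CPM). The tumor aPD1 + aGMCSF + aIL2RB replicate 1 was high for Ctss (985 CPM), Klrb1b (34.3 CPM), Csf2rb (64.7 CPM), Csf2rb2 (52.3 CPM) and Ifng (3.28 CPM), and had the highest leukocyte sum of all 22 (1918 CPM). The tumor aPD1 + aGMCSF + aIL2RB replicate 10 was high for Ctss (414 CPM), Gbp8 (6.06 CPM), Il2rb (1.41 CPM) and Irf8 (42.3 CPM). Vcan was high in aPD1 + aGMCSF + aIL2RB replicate 9 (154 CPM), and Prr33 in aPD1 + aIL2RB replicate 8 (1.52 CPM).

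The effect of adding aGMCSF differed between the ranges by edgeR's test for 51 genes, of which the 22 given here and Psmb8 (-0.52) are named. Each of the 22 lost its call in 16 of 22 fits that left out 1 tumor. As the log2 fold change in replicates 7-11 minus that in replicates 1-6, the difference was -2.80 for H2-Aa, -2.84 for H2-Ab1, -2.92 for H2-Eb1, -1.45 for both H2-DMa and H2-DMb1, -2.76 for Cd74 and -2.69 for Ciita. It was -3.60 for Serpina3f, -3.47 for Dnase1l3, -2.35 for Gbp8, -2.32 for Tlr12 and -1.57 for Tmem51. Positive differences were 1.67 for Pcdhb19, 1.40 for Prr33, 0.82 for Gm43540, 0.81 for 5930430L01Rik, 0.71 for Arxes2, 0.67 for both Gm14421 and Kat6b, 0.66 for Ghr, 0.58 for Kcnq1ot1 and 0.57 for Zfp60. The log2 ratio of Cxcl9 to Spp1 differed by -3.02. Adjusted p for the 22 genes lay between 0.0477 and 0.0491, and what separates the ranges is not stated in the sources used here.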

How the results depend on the processing

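Values of named genes were recomputed under the alternatives for 102 pairs of a gene and a comparison, and none of those changed sign. Named values near 0 outside them were not recomputed, and pooled medians of some lists, those of the class II, interferon-gamma and erythroid lists among them, changed sign when 1 tumor was left out. So did medians of some lists within the ranges. The erythroid, glycolysis, CC chemokine and inflammatory cytokine lists were among them in replicates 1-6, and the erythroid, skeletal muscle, adipocyte and B cell lists in replicates 7-11. The directions of the ratio of Cxcl9 to Spp1 in the ranges and in their difference stayed. Counts of called genes moved. The pooled count of 0 became 6 with DESeq2 and 1 with all 42 tumors in the fit (Tecpr2), and in replicates 1-6 the 0 became 6 with DESeq2 and 0 to 2 when 1 tumor was left out. In replicates 7-11 the 632 became 1131 with DESeq2, 381 with library size alone, 89 with the 10 tumors of that range alone, 132 with the trend on transcript length removed (chosen after seeing the data) and 120 to 1208 when 1 tumor was left out. For the difference the 51 became 534 with DESeq2, 220 with library size alone, 22 with a minimum total of 5 counts, 0 with the length trend removed and 0 to 621 when 1 tumor was left out. The causes were not tested. Same-numbered tumors of the 2 groups correlated between -0.240 and 0.132, with 1 of 11 over 0.1 and 1 of 11 matching its own number best. The labels do not say whether equal numbers mark a pair, and these correlations cannot settle it. With the replicate number as a block, 79 genes were called in replicates 7-11 and 0 in the difference, and the ratio in replicates 7-11 kept its difference of -2.15 with an exact paired p of 0.0625, the smallest that 5 pairs allow. Over the named genes, 522 values with 1 tumor left out lost their call and 42 gained one. The 2244 values recomputed in this way include pairs not called with all 22 tumors, which could not lose a call. Low genes limit what depth can show: Csf2, Il2 and Il5ra were under the filter, and Ifng was at 0 to 3.68 CPM in replicates 7-11. Replicate 4 with aGMCSF, at 7155486 counts, carries the largest counting error.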

Other observations

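Genes of skeletal muscle, which lies beside a tumor under the skin, had the highest pooled median of the lists examined, 0.86 with all 13 members positive and none called, and it stayed between 0.56 and 1.06 when 1 tumor was left out. In replicates 7-11 it ran from -0.63 to 1.70 when 1 tumor was left out. The sum over these 13 genes ran from 3.08 CPM to 268 CPM across the tumors of replicates 7-11 with aGMCSF. The 4 tested erythroid genes had a pooled median of 0.78, and their median was -0.09 in replicates 1-6 and 0.94 in replicates 7-11. Without aPD1 + aGMCSF + aIL2RB replicate 11, the pooled median was -0.57 and that of replicates 7-11 -0.64. In the latter range Alas2, the first enzyme of heme synthesis in red cells, was at 1.36 (adjusted p = 0.168, SE 0.56) and Hbb-bs, a beta globin, at 0.85 (adjusted p = 0.373, SE 0.52).

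Proliferation genes were near 0 in both ranges, with medians of 0.04 and -0.05 over 20 members and none called. Mki67, a marker of cycling cells, was at 0.28 (adjusted p = 0.0503, SE 0.08) in replicates 7-11, and Cdk1 and Pcna were at -0.19 and -0.18. Of 18 genes of fibroblasts and matrix none was called. In replicates 7-11, 14 were positive and 4 negative, the lowest at -0.37, with a median of 0.17. Fn1, Col3a1 and Lum were at 0.27, 0.28 and 0.42 there with adjusted p of 0.115, 0.235 and 0.191. Of 8 B and plasma cell genes none was called, and the median in replicates 7-11 was -0.15. It ran from -0.34 to 0.54 when 1 tumor was left out, positive without aPD1 + aGMCSF + aIL2RB replicate 7, 8, 10 or 11 or aPD1 + aIL2RB replicate 7 or 11. Within this list Pax5, which sets B cell identity, was at 0.97 (adjusted p = 0.0996, SE 0.34) and Cd79a, a chain of the B cell receptor, at 0.93 (adjusted p = 0.256, SE 0.46).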
